A study of Mus musculus with 26 samples.

Results

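The genes described here are 10 mouse genes known for their use or role at the surface of hematopoietic stem cells and in signalling between those cells and their niche: Procr, Tek, Esam, Robo4, Fgd5, Angpt1, Mmrn1, Myct1, Ctnnal1 and Pdzk1ip1. They were taken by symbol from the array's annotation, which gave each of them exactly 1 probe set with that symbol alone, and they are 10 of the 19937 genes tested. Their expression was measured on 26 Affymetrix gene arrays, in a study of acute myeloid leukaemia driven by the fusion MLL-AF9, whose cell lines grow under control of doxycycline (dox). All cells were from strain C57BL/6. The lines had been immortalized in vitro from long-term hematopoietic stem cells (LT-HSC-derived) or from granulocyte macrophage progenitors (GMP-derived) and were harvested from liquid medium. Cultures of LT-HSC-derived lines were harvested with dox (n = 3 for 72 h, n = 2 for 48 h) and without dox (n = 3 for each time), and cultures of GMP-derived lines for 48 h only, with dox (n = 4) and without dox (n = 3). The normal groups were wild-type bone marrow cells sorted as LT-HSC (n = 4) and as GMP (n = 4). The sources used here do not name the surface markers of the sort or the promoter that drives the fusion, and do not say whether a line is 1 clone or whether the hours count from adding or from withdrawing dox. The cultures came from the LT-HSC-derived lines B6-1, B6-2 and B6-3 and the GMP-derived lines B6-1, B6-2, B6-3 and F6-6. Array medians lay between 5.81 and 5.91 on the log2 scale, the correlation over all probe sets within a group was 0.979 to 0.991, and no array was identical to another.

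Hematopoietic stem cells are recognised by proteins at their surface, and several of these are shared with endothelial cells, from which stem cells arise in the embryo. Procr encodes the endothelial protein C receptor, Esam an adhesion molecule of endothelial tight junctions, Robo4 a receptor of the Roundabout family and Tek the receptor tyrosine kinase TIE2, whose ligand angiopoietin 1 is encoded by Angpt1 and is known for holding stem cells in quiescence. Of the others, Fgd5 encodes an exchange factor for the small GTPase CDC42 and is used as a reporter of stem cells in mice, Myct1 a membrane protein of endothelial and stem cells, Mmrn1 the secreted factor V binding protein multimerin 1, Ctnnal1 the intracellular protein alpha-catulin, and Pdzk1ip1 the membrane protein MAP17. The set is thus wider than surface proteins, since Angpt1 and Mmrn1 products are secreted and those of Fgd5 and Ctnnal1 lie inside the cell.

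All 10 genes were higher in sorted LT-HSC than in sorted GMP, by 0.68 to 5.17 on the log2 scale, with a median of 2.41 over the 10 genes against 0.00864 over all genes. Each of the 10 passed the test (limma, 2-sided, p adjusted by Benjamini-Hochberg over the whole table and called under 0.05), in a comparison in which 15.3% of all genes were called higher in LT-HSC. The 4 sorted LT-HSC arrays lay above each of the other 22 arrays for all 10 genes, which was true of 7.27% of all genes. These genes are known as stem cell genes, so the direction in sorted cells describes the label and is no independent result. In these bulk RNA samples, fewer cells of a type and less RNA per cell cannot be told apart.

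**Figure D1:**
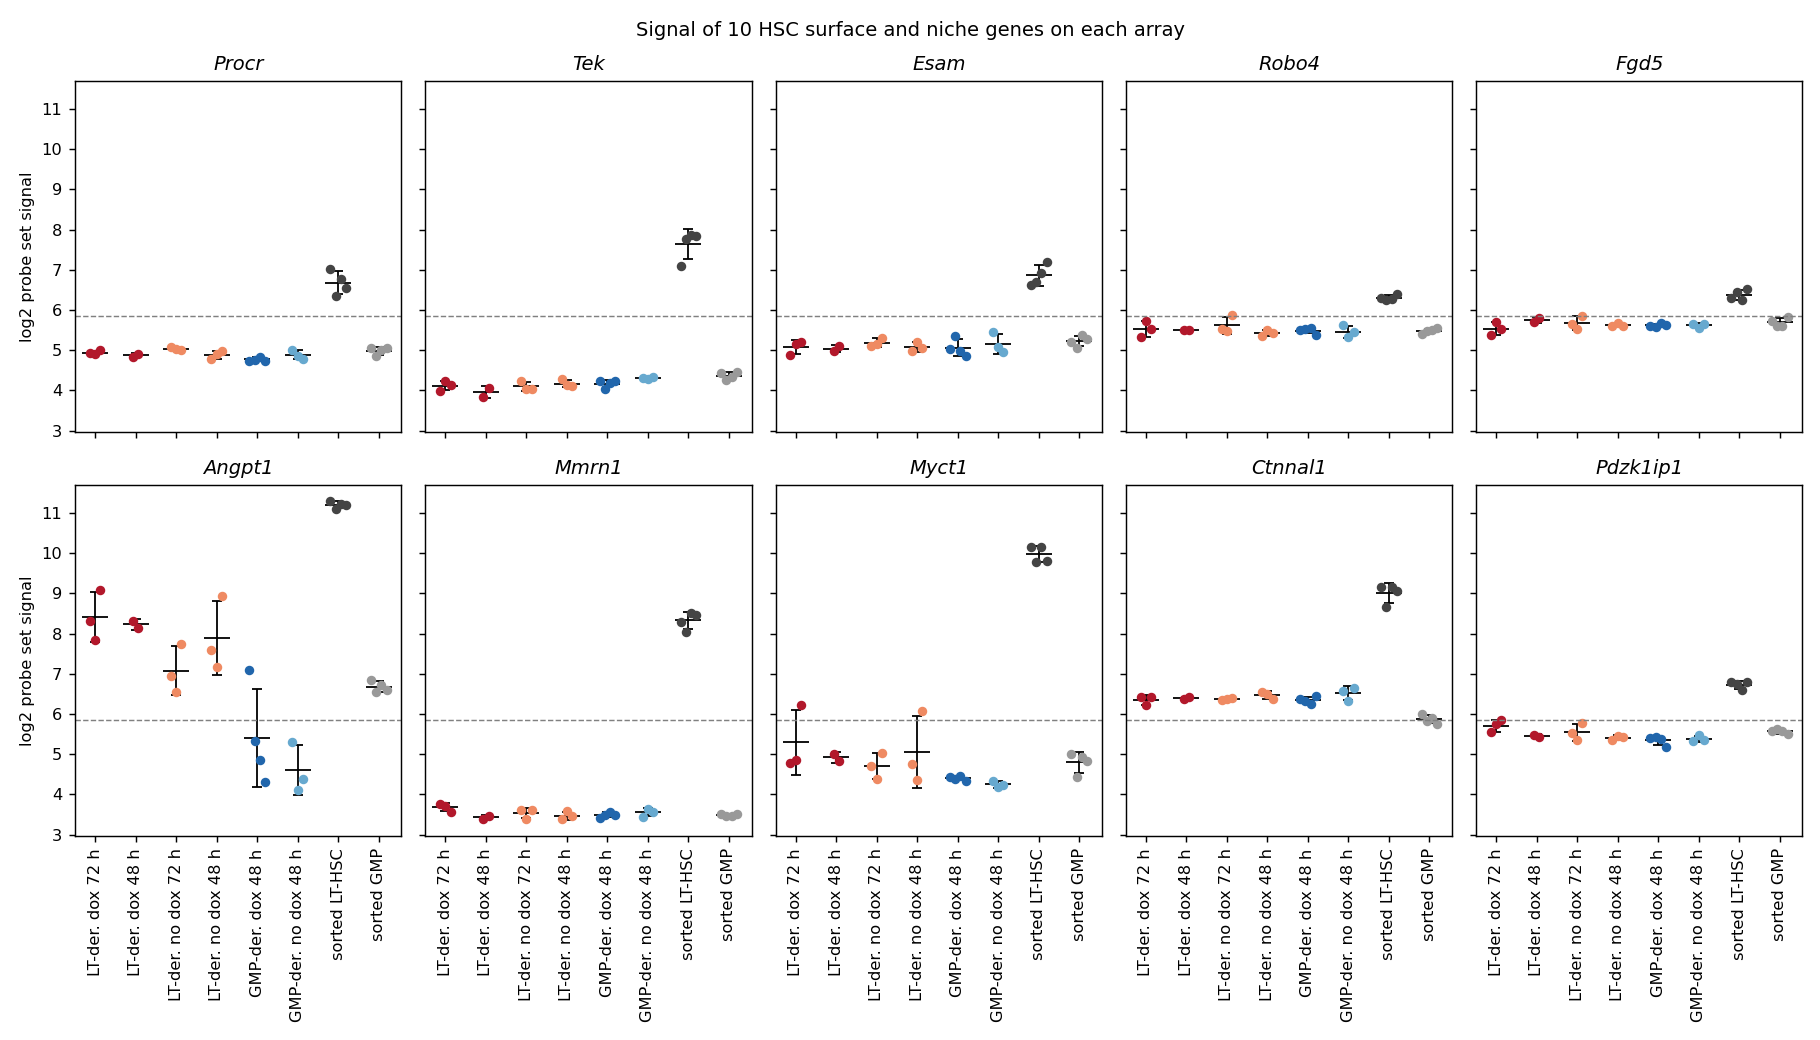
Each panel plots the log2 probe set signal of 1 gene on each of the 26 arrays (points) by group, with the group mean and SD (bars), and the dashed line is the mean of the array medians, 5.86. LT-der. and GMP-der. stand for LT-HSC-derived and GMP-derived lines; the sorted LT-HSC arrays lie above every other array in all 10 panels, and the cultured lines spread widely for Angpt1 (4.11 to 9.08) and Myct1 (4.19 to 6.21). Signals of different genes come from different probes and their heights are not comparable.

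The receptor and its ligand were both higher in LT-HSC. Tek, the TIE2 receptor, had log2 signals of 7.09, 7.76, 7.88 and 7.84 in sorted LT-HSC, against 4.43, 4.27, 4.33 and 4.45 in sorted GMP. The lowest LT-HSC array, replicate 1, stood apart from the other 3 but lay 2.64 above the highest array of any other group. The difference was 3.27 ± 0.12 (SE; 9.66-fold; adjusted p = 1.14e-16). Angpt1, which encodes the ligand, had 11.30, 11.11, 11.23 and 11.19 in sorted LT-HSC, against 6.84, 6.55, 6.73 and 6.60 in sorted GMP. Both groups were tight (SD 0.08 in sorted LT-HSC and 0.13 in sorted GMP) and far apart. The 95% interval of the difference, 3.65 to 5.42, uses a spread shared over all 8 groups, cultured lines included. Angpt1 was the member with the widest range in the cultured lines, and its levels there are given below.

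Of the other receptors and membrane proteins, Procr had 7.02, 6.36, 6.76 and 6.56 in sorted LT-HSC, against 5.05, 4.85, 5.01 and 5.06 in sorted GMP. The groups did not overlap, and the difference was 1.68 ± 0.09 (3.21-fold; adjusted p = 6.01e-13). Esam had 6.62, 6.69, 6.93 and 7.20 in sorted LT-HSC, against 5.21, 5.07, 5.39 and 5.27 in sorted GMP, a difference of 1.63 ± 0.13 (3.09-fold; adjusted p = 1.74e-10). Robo4, which is best known from vascular endothelium, differed less. Its signals were 6.30, 6.26, 6.28 and 6.39 in sorted LT-HSC, against 5.40, 5.47, 5.51 and 5.55 in sorted GMP, and the difference was 0.83 ± 0.09 (adjusted p = 3.14e-08). Pdzk1ip1 had 6.79, 6.75, 6.59 and 6.80 in sorted LT-HSC, against 5.59, 5.64, 5.57 and 5.49 in sorted GMP. Its difference was 1.16 ± 0.08 (2.24-fold; adjusted p = 3.23e-11). Myct1 showed the widest difference of the 10 genes: it had 10.14, 9.78, 10.14 and 9.81 in sorted LT-HSC, against 5.01, 4.42, 4.92 and 4.83 in sorted GMP, which is 5.17 ± 0.28 (36.1-fold; adjusted p = 2.02e-13).

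The remaining members encode a secreted protein and 2 intracellular ones. Mmrn1, also known from the granules of megakaryocytes and platelets, had 8.28, 8.05, 8.51 and 8.47 in sorted LT-HSC, against 3.52, 3.45, 3.45 and 3.51 in sorted GMP. No other array exceeded 3.76 for Mmrn1, and the difference between the sorted groups was 4.84 ± 0.08 (28.7-fold; adjusted p = 8.11e-23). Ctnnal1 had 9.16, 8.65, 9.16 and 9.06 in sorted LT-HSC, against 5.99, 5.82, 5.91 and 5.76 in sorted GMP, a difference of 3.14 ± 0.09 (8.8-fold; adjusted p = 5.05e-18). Fgd5 showed the least difference of the 10 genes. Its signals were 6.29, 6.46, 6.24 and 6.51 in sorted LT-HSC, against 5.74, 5.61, 5.59 and 5.83 in sorted GMP, and the difference was 0.68 ± 0.08 (1.61-fold; adjusted p = 1.97e-07). Outside sorted LT-HSC, Procr, Tek, Esam, Robo4, Fgd5, Mmrn1 and Pdzk1ip1 lay below the array's own median on all 22 arrays, Myct1 on 20 of 22, and Angpt1 on 6 of the 7 GMP-derived arrays. The deposited values carry no detection calls, so the size of a fold against such low signals is uncertain.

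Markers of other cell types also differed between the sorted groups, where 15.3% of all genes were called higher in LT-HSC and 3359 of 19937 lower. Of 12 endothelial markers, 5 were called higher in LT-HSC and 1 lower, and the mean over the list was 5.98 to 6.11 in sorted LT-HSC arrays, against 5.53 to 5.59 in sorted GMP arrays. Emcn (3.92 ± 0.07) and Tie1 (1.38 ± 0.09), which are known from stem cells too, led that list, while Pecam1 was lower (-0.99 ± 0.15). Among 6 endothelial markers not known from stem cells, Kdr (0.40 ± 0.08) and Sox18 (0.37 ± 0.08) were called, Kdr averaged 4.80 in sorted LT-HSC and 4.40 in sorted GMP, and Plvap and Lyve1 differed by -0.02 ± 0.08 and 0.04 ± 0.09. Of 8 megakaryocyte markers, 5 were measured and all 5 were higher in LT-HSC. Their mean was 7.38 to 7.68 in sorted LT-HSC arrays, against 5.48 to 6.02 in sorted GMP arrays, and Pf4, platelet factor 4, differed by 5.11 ± 0.42. None of 7 stromal markers was called, with a mean of 5.11 to 5.16 in sorted LT-HSC arrays, against 5.00 to 5.11 in sorted GMP arrays. All 6 granulocyte-monocyte progenitor markers were lower in LT-HSC (5.92 to 6.53 in sorted LT-HSC arrays, against 10.52 to 10.66 in sorted GMP arrays). Of 4 measured B cell and 4 measured T and NK cell markers, 1 each was called, Cd79b (-0.43) and Klrb1c (0.53). The part of endothelial and megakaryocyte RNA in the members' differences was not tested.

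Because the 10 genes moved together between the sorted groups, the sequence around their starts was read from the RefSeq promoter table of build GRCm38.p6, which holds 8 of the 10 (Procr, Tek, Robo4, Fgd5, Mmrn1, Myct1, Ctnnal1 and Pdzk1ip1). Each window runs from 250 bases before to 50 bases after the gene's start. Both strands were searched for AGGAAG (reverse CTTCCT), a sequence bound by ETS factors such as ERG and FLI1, and for AGATAA (reverse TTATCT), bound by GATA factors. Shorter or other forms of these motifs were not searched. AGGAAG was found in 3 of the 8 windows, against 35.4% of 32851 promoters, and AGATAA in 2 of 8, against 11.2%. The RUNX motif TGTGGT was in 0 of 8 (16.8% of all promoters) and the E-box CANNTG in 6 of 8 (72.3%). These shares are descriptions of letters in a window and show no binding. The 4 windows with an AGGAAG or AGATAA match are shown, with the match in capitals, since they hold the receptors Tek and Robo4, the stem cell reporter gene Fgd5 and Myct1, the member with the widest difference. They are Tek at chr4:94739039-94739338 (+), Robo4 at chr9:37401722-37402021 (+), Fgd5 at chr6:91978715-91979014 (+) and Myct1 at chr10:5593478-5593777 (+), each written 5′ to 3′.
Tek: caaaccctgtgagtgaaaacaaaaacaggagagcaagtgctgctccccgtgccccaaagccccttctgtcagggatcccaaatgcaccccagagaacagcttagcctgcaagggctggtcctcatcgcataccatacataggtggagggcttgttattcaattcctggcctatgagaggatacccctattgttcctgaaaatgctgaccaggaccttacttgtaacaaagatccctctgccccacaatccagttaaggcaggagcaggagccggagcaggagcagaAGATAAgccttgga
Robo4: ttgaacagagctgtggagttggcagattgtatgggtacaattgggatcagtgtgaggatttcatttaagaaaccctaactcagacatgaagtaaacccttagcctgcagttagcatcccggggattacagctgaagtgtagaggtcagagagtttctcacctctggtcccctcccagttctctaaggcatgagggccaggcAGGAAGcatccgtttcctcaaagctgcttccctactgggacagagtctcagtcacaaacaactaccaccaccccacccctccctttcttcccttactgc
Fgd5: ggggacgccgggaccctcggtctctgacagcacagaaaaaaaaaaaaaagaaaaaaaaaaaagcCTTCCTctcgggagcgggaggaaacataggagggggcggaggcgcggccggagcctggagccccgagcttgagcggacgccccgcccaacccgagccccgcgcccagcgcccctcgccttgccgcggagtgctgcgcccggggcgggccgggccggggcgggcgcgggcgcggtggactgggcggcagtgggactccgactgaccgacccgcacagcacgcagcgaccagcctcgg
Myct1: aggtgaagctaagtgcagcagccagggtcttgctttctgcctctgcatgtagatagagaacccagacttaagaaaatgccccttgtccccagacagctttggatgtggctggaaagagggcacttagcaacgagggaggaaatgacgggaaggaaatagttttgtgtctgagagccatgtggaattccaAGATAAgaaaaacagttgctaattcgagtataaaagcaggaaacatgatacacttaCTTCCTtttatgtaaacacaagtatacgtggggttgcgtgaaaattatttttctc
The Tek window holds AGATAA after the start, and the Robo4 and Fgd5 windows hold AGGAAG on 1 strand before the start. Only the Myct1 window of the 8 holds both AGGAAG and AGATAA.

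In LT-HSC-derived lines, all 10 genes were lower than in sorted LT-HSC, whether dox was present or not. Group differences reached from -0.63 for Fgd5 (dox 48 h) to -5.27 for Myct1 (no dox 72 h). The 10 genes were called lower in each of the 4 comparisons with sorted LT-HSC, where 17.0% (dox 72 h), 14.6% (dox 48 h), 17.0% (no dox 72 h) and 18.1% (no dox 48 h) of all genes were called lower. The medians over the 10 genes were -2.22, -2.21, -2.16 and -2.16 in that order. These 4 comparisons share the 4 sorted LT-HSC arrays. The members are known stem cell genes and lay highest on those arrays, so this direction is no independent result. The lines differ from sorted cells by both culture and immortalization, and these cannot be told apart. With dox at 72 h, Tek was lower by 11.5-fold (-3.52 ± 0.13), Mmrn1 by 25.0-fold (-4.65 ± 0.09), Myct1 by 25.6-fold (-4.68 ± 0.30) and Ctnnal1 by 6.31-fold (-2.66 ± 0.10). Procr (-1.73 ± 0.10) and Esam (-1.78 ± 0.14) differed less, followed by Pdzk1ip1 (-1.02 ± 0.09), Fgd5 (-0.85 ± 0.09) and Robo4 (-0.79 ± 0.09). Across the 18 cultured arrays Procr lay between 4.72 and 5.09, Tek between 3.84 and 4.33, Esam between 4.86 and 5.44 and Mmrn1 between 3.39 and 3.76. These 4 genes thus stayed at or near the level of sorted GMP in lines of both origins. Robo4 (5.32 to 5.87) and Fgd5 (5.37 to 5.85) covered the range of sorted GMP in culture, Fgd5 at its upper end only through LT-HSC-derived lines. Pdzk1ip1 (5.19 to 5.85) reached that range only through the LT-HSC-derived lines. Its GMP-derived arrays had 5.19 to 5.42 with dox and 5.32 to 5.46 without dox, below every sorted GMP array (5.49 to 5.64). With dox, GMP-derived arrays also lay below every sorted GMP array for Procr (4.72 to 4.84, against 4.85 to 5.06) and Tek (4.04 to 4.23, against 4.27 to 4.45). In the same lines with dox at 72 h, 3379 of 19937 genes were called higher than in sorted LT-HSC and 17.0% lower. All 6 granulocyte-monocyte progenitor markers were higher there. Of the other lists, 4 of 5 megakaryocyte, 5 of 12 endothelial and 3 of 7 stromal markers were lower, and 1 of the 12 endothelial markers was higher. List means on those arrays were 5.88 to 6.40 for megakaryocyte markers, 5.45 to 5.60 for endothelial markers and 4.89 to 5.09 for stromal markers. Their part in the members' differences was not tested.

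Angpt1 had group means in LT-HSC-derived lines that lay between those of the sorted groups, as did Ctnnal1, whose group means there were 6.35 to 6.47. With dox it had 8.32, 7.84 and 9.08 at 72 h and 8.32 and 8.13 at 48 h. Without dox it had 6.95, 6.54 and 7.75 at 72 h and 7.60, 7.17 and 8.93 at 48 h. Sorted LT-HSC averaged 11.21 ± 0.08 (SD, n = 4), so every LT-HSC-derived array lay at least 2.03 below the lowest sorted LT-HSC array. The differences from sorted LT-HSC were -2.79 ± 0.46 with dox at 72 h (adjusted p = 3.02e-05), -2.98 ± 0.52 with dox at 48 h (adjusted p = 7.93e-05), -4.13 ± 0.46 without dox at 72 h (adjusted p = 8.84e-08) and -3.31 ± 0.46 without dox at 48 h (adjusted p = 2.77e-06). In the order of group means, sorted LT-HSC stood apart from the rest (11.21), followed by LT-HSC-derived lines with dox, 72 h (8.41) and 48 h (8.23), the same lines without dox, 48 h (7.90) and 72 h (7.08), sorted GMP (6.68), and GMP-derived lines with dox (5.40) and without (4.60). Below sorted LT-HSC, the arrays of each group overlapped those of the next, and without dox at 72 h line B6-3 (6.54) lay just under the lowest sorted GMP array (6.55).

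**Figure D2:**
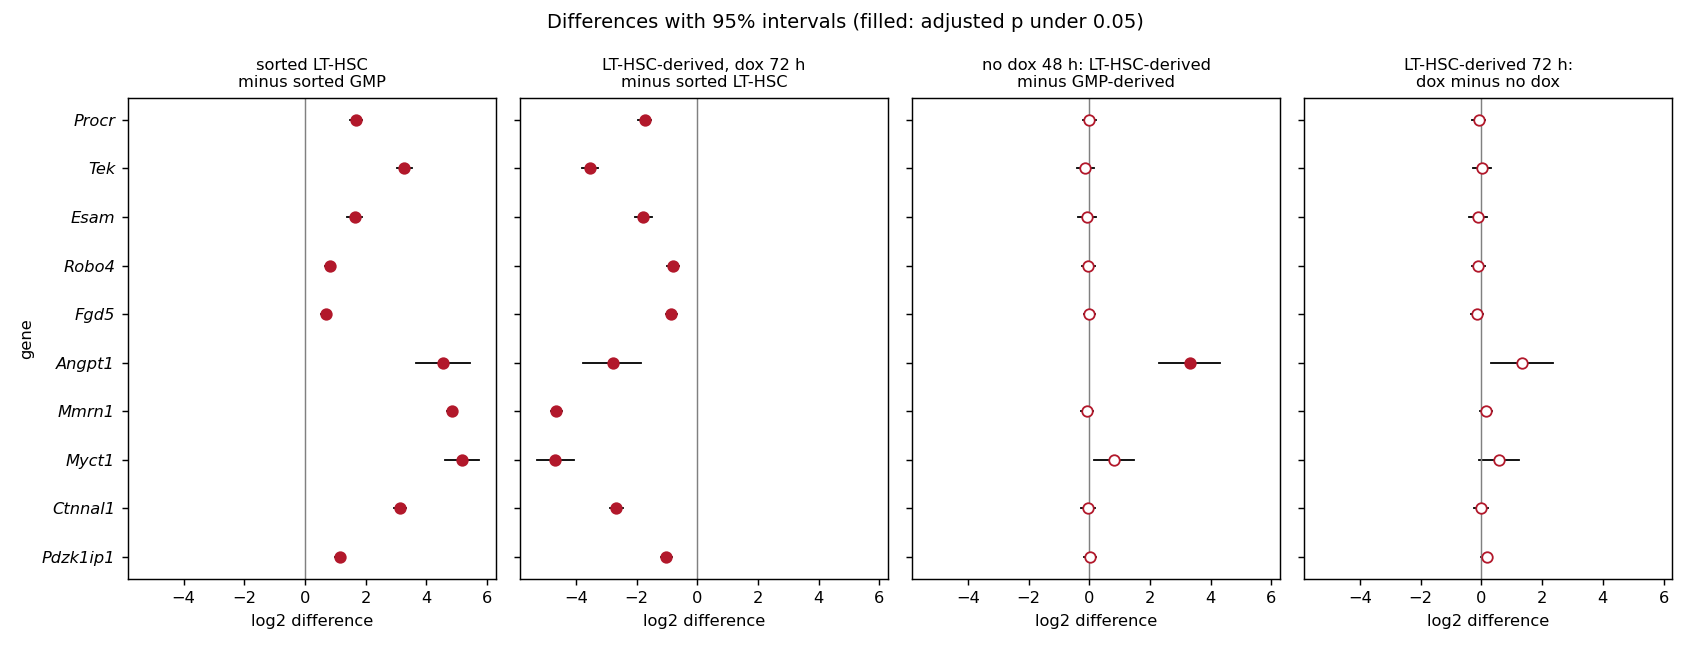
Each panel plots, for the 10 genes (rows), the log2 difference between 2 groups on the x axis (points) with its 95% interval (bars); filled points passed an adjusted p of 0.05. The 10 genes lie to the right of 0 for sorted LT-HSC over sorted GMP and to the left for LT-HSC-derived lines over sorted LT-HSC, only Angpt1 is filled between lines of different origin (3.30), and no point is filled for dox at 72 h without the cell line in the fit.

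In GMP-derived lines, Ctnnal1 and Angpt1 differed from sorted GMP, in opposite directions. Ctnnal1 was higher, with 6.25 to 6.66 in GMP-derived arrays, against 5.76 to 5.99 in sorted GMP arrays. The difference was 0.48 ± 0.09 with dox (adjusted p = 0.000609) and 0.65 ± 0.10 without dox (adjusted p = 3.39e-05). Ctnnal1 and Angpt1 were the 2 of 10 members called in either comparison. Of all genes, 19.8% (dox) and 23.5% (no dox) were called in 1 direction or the other, so the count of members lies near the share over all genes. All 18 cultured arrays, of either origin, lay above the highest sorted GMP array for Ctnnal1. Angpt1 was lower: GMP-derived lines had 7.11, 5.33, 4.85 and 4.31 with dox and 5.30, 4.11 and 4.38 without, against 6.84, 6.55, 6.73 and 6.60 in sorted GMP. Without dox every line lay below every sorted GMP array, and the difference was -2.08 ± 0.46 (adjusted p = 0.00156). With dox, line B6-2 lay above the sorted GMP arrays and the other 3 lines below them, and the difference was -1.28 ± 0.43 (adjusted p = 0.0364). That call with dox was lost when sorted GMP replicate 1, 2, 3 or 4 (adjusted p between 0.0571 and 0.0832) or GMP-derived dox replicate 2, 3 or 4 (0.0726, 0.113 and 0.168) was left out, with array weights (0.0892) and in a fit of only the groups compared (0.0686). The other 8 genes did not pass the test, with differences between -0.54 and 0.06 without dox and between -0.40 and 0.01 with dox. Without dox, Myct1 (-0.54) passed in a fit of only the groups compared (adjusted p = 0.0114) and Pdzk1ip1 (-0.21) with array weights (0.0294). With dox, Procr (0.0338) and Myct1 (0.0246) passed in the fit of only the groups compared, and Procr also with array weights (0.0426).

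Between lines of the 2 origins at 48 h, Angpt1 was the only one of the 10 genes called. Without dox it had 7.60, 7.17 and 8.93 in LT-HSC-derived lines, against 5.30, 4.11 and 4.38 in GMP-derived lines. Every LT-HSC-derived array lay above every GMP-derived one, and the difference was 3.30 ± 0.49 (adjusted p = 0.000129; 3.52% of all genes called higher). With dox it had 8.32 and 8.13 in LT-HSC-derived lines, against 7.11, 5.33, 4.85 and 4.31 in GMP-derived lines, a difference of 2.83 ± 0.52 (adjusted p = 0.00252; 1.17% called higher). The GMP-derived signals lay below the array median without dox (3 of 3) and on 3 of 4 arrays with dox, so these log2 differences carry the uncertainty of low signals. With dox, 2 LT-HSC-derived arrays were analysed at 48 h, and the call was lost without replicate 1 (adjusted p = 0.0528) or replicate 2 (0.0561) of them and in a fit of only the groups compared (0.0742). Myct1 was next in size, and without dox it had 4.76, 4.35 and 6.07 in LT-HSC-derived lines, against 4.34, 4.19 and 4.22 in GMP-derived lines. The arrays did not overlap, but the difference of 0.81 ± 0.32 did not pass (adjusted p = 0.15; 95% interval 0.15 to 1.47). It was 0.30 (adjusted p = 0.73) without LT-HSC-derived replicate 3, which is line B6-1, and 1.16 (adjusted p = 0.0342) without replicate 2. With dox the Myct1 difference was 0.52 ± 0.34 (adjusted p = 0.703; -0.18 to 1.21), and it passed in the fit of only the groups compared (adjusted p = 0.0253). The other 8 genes differed by -0.13 to 0.03 without dox and by -0.22 to 0.13 with dox, and none passed.

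Dox was compared with no dox in each kind of line to ask whether the 10 genes move with the switch that controls the fusion. In the fit on group means none of the 10 genes passed, where 3.43% of all genes were called higher and 3.72% lower in LT-HSC-derived lines at 72 h, 0.155% and 0.286% at 48 h, and 5.75% and 5.18% in GMP-derived lines. At an unadjusted p under 0.05, 1 of the 10 genes (Angpt1) passed in LT-HSC-derived lines at 72 h and 0 in both 48 h comparisons. Leaving out Angpt1 and Myct1, the 95% intervals of the other 8 genes reached from -0.41 to 0.36 in LT-HSC-derived lines at 72 h, from -0.54 to 0.34 at 48 h and from -0.40 to 0.22 in GMP-derived lines. Of these 8 genes, all except Ctnnal1 lay below the array median on every cultured array. Narrow intervals at such low signals cannot show that dox leaves these genes unchanged. For scale, Meis1, a known target of MLL fusions, was higher with dox by 1.61 ± 0.18, 1.27 ± 0.20 and 2.46 ± 0.17 in the same 3 comparisons.

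Cultures with and without dox share their lines. Within a line Angpt1 was higher with dox in all 8 pairs, as were 5.98% of all genes. In LT-HSC-derived lines at 72 h the difference was 1.32 in B6-1, 1.38 in B6-2 and 1.30 in B6-3. At 48 h it was 0.72 in B6-2 and 0.97 in B6-3, and in GMP-derived lines it was 1.81 in B6-2, 1.22 in B6-3 and 0.47 in F6-6. The 3 lines thus moved by nearly the same amount at 72 h, while the GMP-derived lines differed among themselves. With the line as a replicate block, the difference was 1.33 ± 0.19 in LT-HSC-derived lines at 72 h (adjusted p = 0.000463), 0.72 ± 0.21 at 48 h (adjusted p = 0.159) and 1.16 ± 0.19 in GMP-derived lines (adjusted p = 0.000868). Without the block the same values were 1.33 ± 0.49 (adjusted p = 0.113), 0.33 ± 0.55 (0.991) and 0.80 ± 0.46 (0.363). In the blocked fit 4.82%, 0.266% and 5.43% of all genes were called higher in these 3 comparisons. Left out in turn, no line ended the blocked call at 72 h (adjusted p between 0.00266 and 0.0188) or in GMP-derived lines (between 0.000123 and 0.0146). At 48 h line B6-1, the highest LT-HSC-derived line for Angpt1, was analysed without dox (8.93) and not with dox, which lowers the unblocked value.

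Myct1 was also higher with dox in all 8 pairs, by less, as were 5.98% of all genes. Its signals lay below the array median on all GMP-derived and most LT-HSC-derived arrays, which limits the reading of small differences. The differences were 1.19 in B6-1, 0.10 in B6-2 and 0.48 in B6-3 at 72 h, 0.25 in B6-2 and 0.47 in B6-3 at 48 h, and 0.08 in B6-2, 0.18 in B6-3 and 0.23 in F6-6 among GMP-derived lines. At 72 h the LT-HSC-derived arrays had 4.79, 4.86 and 6.21 with dox, against 4.69, 4.38 and 5.02 without dox, and B6-1 was the highest in both. With the line as a block the difference at 72 h was 0.59 ± 0.17 (adjusted p = 0.0425), against 0.59 ± 0.32 without it (adjusted p = 0.31). That blocked call was lost without B6-1 (0.29 ± 0.11, adjusted p = 0.178) and without B6-3 (adjusted p = 0.0915) and kept without B6-2 (0.0486). The 48 h differences did not pass with the block either (0.23 ± 0.20, adjusted p = 0.841, in LT-HSC-derived lines; 0.16 ± 0.17, adjusted p = 0.684, in GMP-derived lines).

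**Figure D3:**
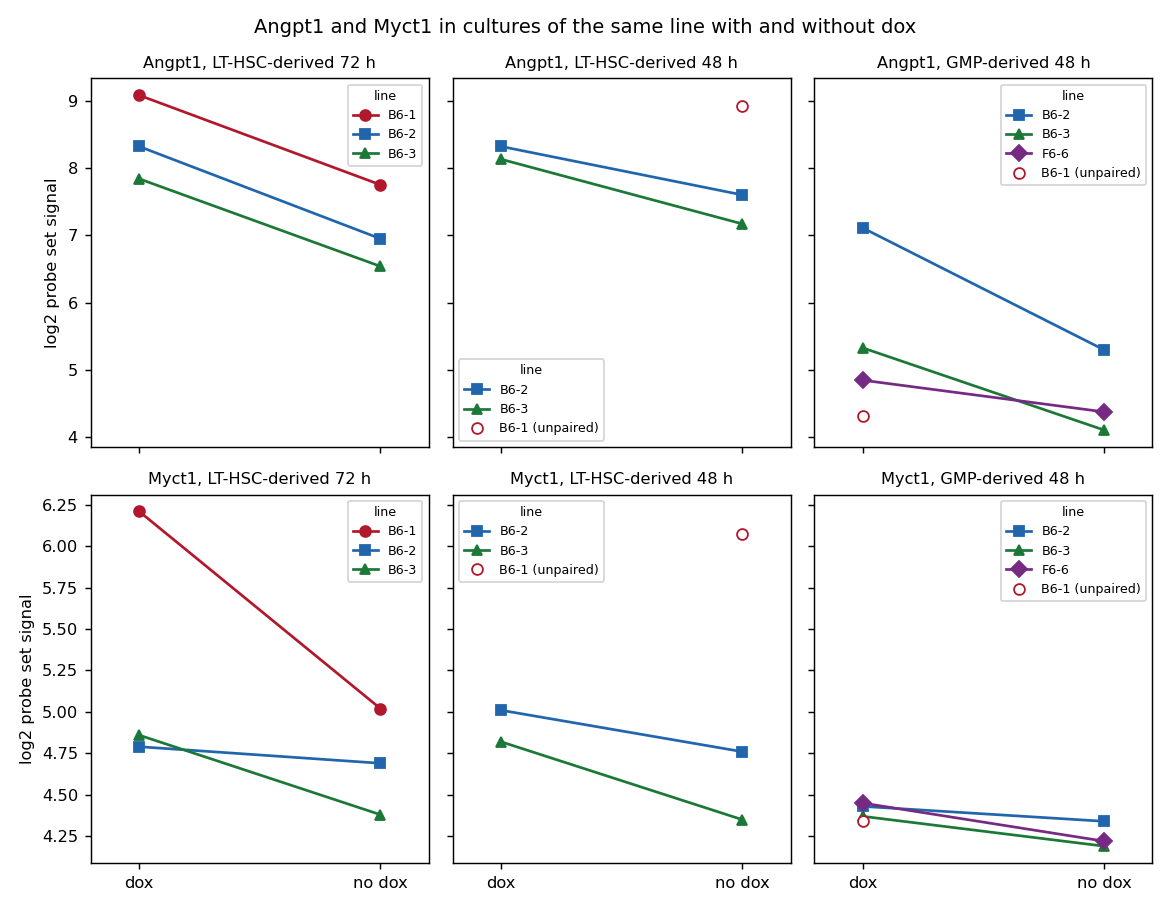
Log2 probe set signal of Angpt1 (top) and Myct1 (bottom) in cultures with dox (left of each panel) and without dox (right), joined by line; colours and symbols name the line, and open symbols are lines with an array in only 1 of the conditions. All joined lines are higher with dox, and LT-HSC-derived line B6-1 is the highest of its group in each panel that holds it.

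Of all genes, 5.98% were higher with dox in each of the 8 pairs, and the 48 h and 72 h pairs come from the same lines. Pdzk1ip1 was higher with dox in 6 of 8 pairs, Fgd5 in 5, Robo4 and Mmrn1 in 4, Procr and Esam in 3, and Tek and Ctnnal1 in 2 each (Esam in LT-HSC-derived B6-3 at 72 h by less than the rounding). Whether the response to dox differs between origins was tested as an interaction at 48 h, and none of the 10 genes passed (0.161% of all genes called higher and 0.0702% lower). For Angpt1 the response in LT-HSC-derived lines minus that in GMP-derived lines was -0.47 ± 0.72 (95% interval -1.96 to 1.02; adjusted p = 0.95), and -0.44 ± 0.28 with the line as a block (adjusted p = 0.723). The response at 72 h minus that at 48 h in LT-HSC-derived lines passed for 0 of the 10 genes by limma, with 0 at an unadjusted p under 0.05, and for 0% of all genes. For Angpt1 it was 1.00 ± 0.74 (-0.53 to 2.54; adjusted p = 0.878), and 0.61 ± 0.28 with the line as a block (adjusted p = 0.683).

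Genes of the same pathways were read beside the members. These lists were chosen with earlier results of these data known, so their counts are not independent. Between the sorted groups 15.3% of all genes were called higher in LT-HSC and 3359 of 19937 lower, and the shares for dox are given above. In the angiopoietin pathway, Tie1, the receptor that pairs with TIE2, was higher in sorted LT-HSC (6.83, against 5.45 in sorted GMP; 1.38 ± 0.09, adjusted p = 9.37e-12), and so was the TIE2 adaptor Dok2 by 0.24 ± 0.09 (adjusted p = 0.0497), so that 2 of 6 genes were called higher and 0 lower, with a list median of 0.14. The alternative ligand Angpt2 differed by -0.21 ± 0.12 and did not pass (adjusted p = 0.204). With dox, Dok2 was lower by -0.37 ± 0.11 in LT-HSC-derived lines at 72 h and -0.41 ± 0.10 in GMP-derived lines, and no gene of this list was called at 48 h in LT-HSC-derived lines. In the SLIT-ROBO list 5 of 10 genes were higher in sorted LT-HSC and 1 lower (median 0.14), among them the GTPase activating protein gene Srgap3 (1.54 ± 0.08) and Robo3 (0.52 ± 0.08), with Srgap2 lower (-0.59 ± 0.09). With dox 1 gene was higher and 1 lower in GMP-derived lines, Srgap3 (0.40 ± 0.08) and Srgap2 (-0.46 ± 0.10), and 0 in LT-HSC-derived lines at either time.

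Procr acts with thrombin and its receptors, and 8 of 9 genes of the protein C and thrombin list were measured. F2r, which encodes the thrombin receptor PAR1, was higher in sorted LT-HSC (8.48, against 5.96 in sorted GMP; 2.51 ± 0.28, adjusted p = 1.01e-07), as was F2rl2, encoding PAR3 (0.71 ± 0.10), while thrombomodulin, Thbd, was lower (-0.53 ± 0.13). The list median was 0.01. F2r had 7.36 to 7.95 at 72 h in LT-HSC-derived lines with dox, where it was lower than in sorted LT-HSC by less than Procr (-0.91 ± 0.30, adjusted p = 0.0223); the difference between the 2 genes was not tested. With dox in GMP-derived lines Thbd was higher (0.49 ± 0.14) and F2rl2 lower (-0.33 ± 0.10), and no gene of the list was called in LT-HSC-derived lines. Around Fgd5, 2 of 6 genes of the FGD list were higher in sorted LT-HSC, Fgd3 (0.45 ± 0.12) and Fgd1 (0.41 ± 0.07), and 2 lower, Fgd4 (-1.52 ± 0.14) and Cdc42 (-0.20 ± 0.07), with a median of -0.07. Fgd4 was the opposite of Fgd5 also in culture: it had 9.35 to 9.65 at 72 h in LT-HSC-derived lines with dox, against 6.70 to 7.48 in sorted LT-HSC (2.53 ± 0.15, adjusted p = 1.41e-12). Fgd6 was lower with dox in LT-HSC-derived lines at 72 h (-0.52 ± 0.15) and in GMP-derived lines (-0.71 ± 0.14).

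Esam belongs with the junctional adhesion genes, of which 3 of 9 were higher in sorted LT-HSC and 2 lower (median 0.10). F11r, encoding JAM-A (2.27 ± 0.22, adjusted p = 1.14e-08), and Jam2 (1.31 ± 0.11) were among the higher ones, and Pecam1 (-0.99 ± 0.15) and Cd34 (-0.96 ± 0.23), both also present on progenitors, were lower. With dox F11r was lower in LT-HSC-derived lines at 72 h, with 6.09 to 6.40 against 6.92 to 8.15 without dox (-1.33 ± 0.26, adjusted p = 0.00203), and in GMP-derived lines (-1.07 ± 0.24). In GMP-derived lines Cd34 was higher with dox, with 6.61 to 8.41 against 5.53 to 5.80 without dox (2.07 ± 0.25, adjusted p = 7.51e-06), as was Pecam1 (0.73 ± 0.17). Esam itself had 4.86 to 5.44 in all cultured arrays and was not called with dox in any comparison. For Mmrn1, Emilin2 was the only called gene of 4 in its EMILIN-multimerin list, lower in sorted LT-HSC (-0.67 ± 0.13), and lower with dox at 72 h (-0.56 ± 0.15) and in GMP-derived lines (-0.66 ± 0.14). For Ctnnal1, 2 of 6 catenin and vinculin genes were higher in sorted LT-HSC, Ctnnd1 (0.44 ± 0.09) and Ctnnb1 (0.25 ± 0.06), with a median of 0.20. With dox Ctnna1 was lower at 72 h (-0.46) and in GMP-derived lines (-0.36), and Vcl, vinculin, was lower in GMP-derived lines (-0.85 ± 0.16). For Pdzk1ip1, 1 of 5 PDZK1 scaffold genes was called, Slc9a3r2 (0.27), and 0 with dox.

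The members were also set beside other stem cell genes and the transcription factors of blood and endothelium. All 12 measured genes of the stem cell list were higher in sorted LT-HSC (median 2.32), led by Mecom (4.50 ± 0.21), Meis1 (3.69 ± 0.16) and Hlf (3.20 ± 0.10), and 7 of 10 transcription factors were higher and 0 lower (median 0.54), among them Erg (1.65 ± 0.14), Gata2 (1.37 ± 0.17) and Lmo2 (0.83 ± 0.08). Earlier results of these data were known when the stem cell list was made, so its direction is not independent. With dox at 72 h 3 of these 12 stem cell genes were called higher in LT-HSC-derived lines, Mecom (2.64 ± 0.24), Meis1 (1.61 ± 0.18) and Kit (0.71 ± 0.17), and 0 lower. At 48 h Mecom (2.14 ± 0.27) and Meis1 were called higher, and in GMP-derived lines only Meis1 was. Of the transcription factors, Erg (0.86 ± 0.16), Lmo2 (0.52 ± 0.10) and Etv6 (0.28 ± 0.08) were higher and Runx1 lower (-0.47 ± 0.10) with dox at 72 h in LT-HSC-derived lines. In GMP-derived lines Lmo2 (0.46 ± 0.09) and Etv6 (0.28 ± 0.08) were higher and Runx1 (-0.34 ± 0.10) lower with dox, and 0 were called at 48 h in LT-HSC-derived lines.

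The genes most like each member over the 26 arrays were found by Pearson correlation of log2 values, given as a description, since the 4 sorted LT-HSC arrays stand apart for every member and the arrays share lines. For the receptor Tek they were Emcn (r = 0.991), Nbea (0.990) and Lrch2 (0.989), and for Esam they were Rtp4 (0.979), Arhgef12 (0.975) and Tie1 (0.974). Procr was most like Adam22 (0.983), Prkg1 (0.981) and Samd12 (0.980), and Mmrn1 was most like Prkg1 (0.996), Emcn (0.995) and Nbea (0.994). Robo4 and Fgd5 shared Gimap8 (0.967 and 0.951), beside Zfp532 (0.953) and Cnrip1 (0.953) for Robo4 and Myo5c (0.952) and Efcc1 (0.950) for Fgd5. Myct1 was most like Casp12 (0.991), Nckap1 (0.988) and Map9 (0.984), Ctnnal1 most like Fam110c (0.976), Dlg2 (0.975) and the member Mmrn1 (0.975), and Pdzk1ip1 most like Adcy6 (0.974), Aldh1a1 (0.970) and Art4 (0.969). Angpt1, whose level also varied among the lines, was most like Rab38 (0.966), Tpm1 (0.964) and Adgrg1 (0.958). Adgrg1, which encodes the adhesion receptor GPR56, had 7.34 to 7.94 at 72 h in LT-HSC-derived lines with dox and 5.61 to 6.15 in GMP-derived lines with dox, against 9.81 to 9.93 in sorted LT-HSC. Rab38 had 6.93 to 8.52, 5.22 to 6.26 and 8.68 to 8.78 in the same 3 groups.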

How the data were processed

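The authors deposited log2 probe set signals, already processed, for 34760 probe sets on 26 arrays; the submitters' processing notes name R 3.1.1 and limma, and do not give the background correction, summarisation, normalization or genome build. The log2 scale was read from the values. Of the probe sets, 21640 carried 1 gene symbol, 1321 several and 11799 none. Each of 19937 genes was represented by its probe set with the highest mean, and 954 genes had several. RefSeq (GRCm38.p6) matched 19854 of these genes by Entrez ID and served for names, neighbours and promoters only.

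Group means were estimated over the 26 arrays in 1 linear model (lmFit, contrasts.fit and eBayes of limma 3.58.1, run in R 4.3.3) for 14 comparisons, with no filter on dim probe sets. Calls needed p under 0.05 after Benjamini-Hochberg adjustment over all genes, 2-sided, and differences carry the SE of that model. The fit on group means was checked on simulated data with independent noise and no line effect, for the sorted and dox comparisons. The fits with a block were not checked in this way. The labels call the replicates biological, but do not tie the sorted arrays to separate animals, and p-values then measure only the spread between these samples. The number of arrays limits the precision.

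Cultures with and without dox carry the same line names, so they were paired by line. Deviations from group means correlated over genes between arrays of the same line with r of 0.291 to 0.401 in GMP-derived lines, 0.212 to 0.345 in LT-HSC-derived lines at 48 h and -0.057 to 0.321 at 72 h. The fit with the line as a replicate block used cultured arrays. For comparisons of lines between origins or with sorted cells, a fit with the line as a random block was run as an alternative. The values given for those comparisons come from the fit on group means, without a block.

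Alternatives were quantile normalization, median centring, a filter on dim genes (11594 kept), a trended prior, array weights, a mean over probe sets, only the groups compared, and each array left out. The blocked fit with each line left out was added after seeing the data. Members, lists, comparisons and the naming rule were chosen with earlier results of these data known. Named genes were the 10 members, up to 3 called genes with the largest difference of each list in the sorted and dox comparisons (otherwise the gene with the highest mean), the 3 most correlated genes of each member, nearest neighbours, markers, and Hprt, Meis1 and Mecom. Angpt2, Cdc42, Adgrg1 and Rab38 were given values after these were seen, as was Fgd4 in culture.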

Additional observations from a re-analysis of the deposited data

Results flagged for a closer look

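Among 30 groups of 4 arrays tested over the 10 genes, 1 array stood apart from the other 3: Tek in sorted LT-HSC replicate 1 had a log2 signal of 7.09, against 7.76 to 7.88 in the other 3. The gap to the nearest array was 0.859 of the whole range, against Dixon's critical value of 0.829. Chance marks about 1 in 20 such groups, so 1 of 30 is no more than chance gives. The difference of Tek between sorted LT-HSC and sorted GMP was called with and without that array.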

How the results depend on the processing

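Of 2250 differences of single members under the alternatives, 2214 kept their side of the threshold, 12 lost a call and 24 gained one. Among called differences 0 changed sign, while the 2214 include differences that were not called and changed sign. Of 84 differences that were not called, 31 changed sign under some alternative, the unblocked Myct1 value at 48 h in LT-HSC-derived lines among them (-0.15, against 0.23 with the line as a block). The count of members called stayed at 10 between the sorted groups and between LT-HSC-derived lines and sorted LT-HSC under every alternative run. With the line as a replicate block, 2 members were called for dox in LT-HSC-derived lines at 72 h and 1 in GMP-derived lines, against 0 without it, and the pairing by line changed no other count of members by over 1.5 times; over all genes the block gave 1996 calls at 72 h (1425 without it), 279 at 48 h (88 without it) and 2307 in GMP-derived lines (2179 without it). Sorted arrays with the same number correlated with r of 0.02 to 0.06 and were not paired, and a replicate block by that number called 5926 genes, the 10 members included, against 6402. For GMP-derived lines with dox over sorted GMP, 4 members were called with only the groups compared, Angpt1 not among them, against 2, and 1 to 2 with an array left out. Pdzk1ip1 there (-0.23 ± 0.08, adjusted p = 0.0507) passed under 6 alternatives (0.0260 to 0.0492). Between origins, 0 to 1 members were called with dox and 1 to 2 without dox when an array was left out, against 1 in each; the second was Myct1 without LT-HSC-derived no-dox 48 h replicate 2 (adjusted p = 0.0342). With only the groups compared, Myct1 was called between origins with dox (0.0253) and Angpt1 was not (0.0742). The cause of these changes was not tested. Signals below the array median, without detection calls, limit what can be said of 8 of the 10 genes outside sorted LT-HSC and of Angpt1 in GMP-derived lines.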

Other observations

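Genes next to a member on its chromosome were measured too. Vsig2, which lies beside Esam, was higher in sorted LT-HSC by 1.48 ± 0.13 (6.93, against 5.44 in sorted GMP; limma adjusted p = 1.19e-09), close in size to Esam's 1.63 ± 0.13, and LT-HSC-derived lines had 5.45 to 5.60 at 72 h with dox. Tal1, the stem cell leukaemia factor beside Pdzk1ip1, was higher by 0.65 ± 0.09 (adjusted p = 3.35e-06), and Robo3 beside Robo4 by 0.52 ± 0.08. On the other side of these genes, Msantd2 (0.18 ± 0.08), Cyp4x1 (0.08 ± 0.09) and Hepacam (0.03 ± 0.07) did not pass. Beside Procr, Edem2 was lower in sorted LT-HSC (-0.78 ± 0.08), and beside Angpt1 neither Abra (-0.47 ± 0.21) nor Rspo2 (0.08 ± 0.08) passed. Of the 20 neighbours, 8 were called higher and 2 lower, against 3043 higher and 3359 lower of all 19937 genes. The order of genes was taken from RefSeq.

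Hprt, a housekeeping gene of purine salvage, was higher with dox by 3.53 ± 0.18 in LT-HSC-derived lines at 72 h, 3.00 ± 0.20 at 48 h and 3.11 ± 0.16 in GMP-derived lines. Pf4 was the only 1 of 5 measured megakaryocyte markers called with dox in LT-HSC-derived lines at 72 h, and the list median was 0.05. It was lower, with 4.92 to 6.29 with dox against 6.19 to 8.43 without dox (-1.75 ± 0.48, limma adjusted p = 0.0272). Mmrn1, also known from megakaryocytes, differed by 0.14 ± 0.10 (adjusted p = 0.433). Its signal lay below the array median on every cultured array, so a comparison of the 2 genes is limited.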
